A study of Mus musculus with 9 samples.

Results

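The genes described here encode interferon-inducible GTPases of mouse macrophages. They comprise 4 guanylate-binding proteins (Gbp2, Gbp3, Gbp5 and Gbp7) and 5 immunity-related GTPases (Irgm1, Irgm2, Igtp, Ifi47 and Tgtp2). They were taken by gene symbol from a deposited table of 54532 genes, and all 9 symbols were found. RNA-seq libraries were made from RAW264.7, a wild-type mouse macrophage line that the labels trace to ascites, in 3 groups of 3 libraries. Control cells were untreated, LPS cells received lipopolysaccharide at 1 μg/ml for 6 h, and LPS + G-CDs cells received LPS at 1 μg/ml and G-CDs at 400 μg/ml for 6 h. LPS is the outer-membrane glycolipid of Gram-negative bacteria, and G-CDs are carbon dots made from roasted Glycyrrhiza. The labels name G-CDs only in the titles of the third group and list LPS as its treatment, so the added agent, its dose and the time come from the methods of the study. A single cell line was used, and no group received G-CDs without LPS. Neither the labels nor the methods say whether the 3 libraries of a group came from separate cultures, and p-values then measure only the spread between these libraries.

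Interferons bind receptors that signal through JAK kinases to STAT and IRF transcription factors, which bind the interferon-stimulated response element (ISRE) and the gamma-activated site (GAS) near their target genes. Guanylate-binding proteins are large GTPases that assemble on bacteria and on the membranes of pathogen-containing vacuoles and promote inflammasome activation there. Immunity-related GTPases with a GMS motif in their nucleotide-binding site (Irgm1, Irgm2, Igtp) sit on host membranes and restrain those with the usual GKS motif (Ifi47, Tgtp2), which load onto the vacuoles. Macrophages that sense LPS make interferon-β, which acts back on the same cells.

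All 9 genes lay in 3 groups of neighbours on GRCm38, and their coordinates in the table equaled those of GENCODE mouse release 21. The 4 Gbp genes lay on chromosome 3 within 144 kb (chr3:142493978-142638008). Irgm1, Tgtp2 and Ifi47 lay on chromosome 11 within 235 kb (chr11:48861968-49096974), and Igtp and Irgm2 lay further along the same chromosome within 23.2 kb (chr11:58199556-58222782). All 9 are annotated as protein coding. Igtp and Irgm2 share 162 exon bases, and 12.3% of the 50-base words of the Igtp transcript also occur in transcripts of Irgm2. Of the words of Irgm2, 6.29% occur in Igtp. For Tgtp2, 89.8% of the words also occur in its neighbour Tgtp1, so its reads cannot be assigned with certainty. Of the words of Gbp7, 10.6% also occur in the overlapping gene Gm43802. Among the other 5 genes the shared portion was at most 4.79% of words, and Irgm1 shared none. Ifi47 also shares 111 exon bases with Olfr56 on the same strand and 106 with the antisense gene Gm12188. Whether the counting used strand is not given in the sources used here.

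The windows around the start sites carried interferon response motifs, and they are shown here because they hold what the genes share in sequence. RefSeq windows from 250 bases before to 50 bases after each start site (build GRCm38.p6) were matched by symbol for all 9 genes, and Gbp3 had a second window, which held no match. They were searched on both strands for an ISRE core (GAAANNGAAA), a GAS (TTCNNNGAA) and a simplified NF-kB site (GGGNNNTTCC). The ISRE core was present in 8 of the 9 genes, all but Ifi47, against 3.99% of the 27025 genes with a window (3.44% of all 32851 windows). The GAS was present in 5 of the 9 genes (Gbp5, Gbp7, Igtp, Irgm2, Tgtp2), against 9.55% of genes with a window (8.30% of windows). The NF-kB letters were present in Gbp2 and Gbp5, against 6.31% of genes with a window (5.56% of windows). Capitals mark ISRE core and GAS matches in the following stretches, which run 5′ to 3′ along the gene and, except for the Gbp7 stretch of 110 bases, cover the 100 bases before the start site.
Igtp (chr11:58199456-58199555, + strand): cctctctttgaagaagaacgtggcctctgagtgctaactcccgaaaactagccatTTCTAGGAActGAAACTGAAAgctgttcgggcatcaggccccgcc
Irgm2 (chr11:58214877-58214976, + strand): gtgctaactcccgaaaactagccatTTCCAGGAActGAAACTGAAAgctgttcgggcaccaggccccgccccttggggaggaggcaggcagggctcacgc
Tgtp2 (chr11:49064213-49064312, - strand): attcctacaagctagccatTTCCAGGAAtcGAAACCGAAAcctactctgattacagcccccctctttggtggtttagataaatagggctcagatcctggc
Irgm1 (chr11:48871421-48871520, - strand): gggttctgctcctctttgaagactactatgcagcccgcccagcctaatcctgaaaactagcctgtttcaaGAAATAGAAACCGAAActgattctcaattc
Gbp3 (chr3:142559944-142560043, + strand): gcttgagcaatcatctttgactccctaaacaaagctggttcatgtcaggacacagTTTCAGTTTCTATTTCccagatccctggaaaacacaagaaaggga
Gbp7 (chr3:142530226-142530335, + strand): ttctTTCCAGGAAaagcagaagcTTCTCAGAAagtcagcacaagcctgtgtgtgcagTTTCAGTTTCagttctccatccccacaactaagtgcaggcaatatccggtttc
Ifi47 (chr11:49076487-49076586, + strand): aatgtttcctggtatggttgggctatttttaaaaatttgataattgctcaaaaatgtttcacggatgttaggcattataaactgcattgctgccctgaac

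In Igtp, Irgm2 and Tgtp2 the GAS preceded the ISRE core on the same strand with 2 bases between them. This spacing was noticed in these sequences, and the joined pattern TTCNNNGAANNGAAANNGAAA was then found in 5 of all 32851 windows, of which these genes account for 3. The windows of Igtp and Irgm2 shared an unbroken run of 61 bases, which lay after the motifs and held neither. The letters around the motifs were also alike in both windows, though the GAS read TTCTAGGAA in Igtp and TTCCAGGAA in Irgm2. The windows of Irgm2 and Tgtp2 shared a run of 17 bases that held the GAS. The motifs of these genes are therefore not counted as separate observations. Irgm1 and Gbp3 each held a pair of overlapping ISRE cores, which lay between 30 and 15 bases before the start site in Irgm1 and between 45 and 30 bases before it in Gbp3. In the Gbp genes the core read on the strand opposite to the gene, and in the Irgm genes, Igtp and Tgtp2 on the same strand. No ISRE core overlapped a GAS in these windows. A match is a stretch of letters and not a measured binding site.

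**Figure D1:**
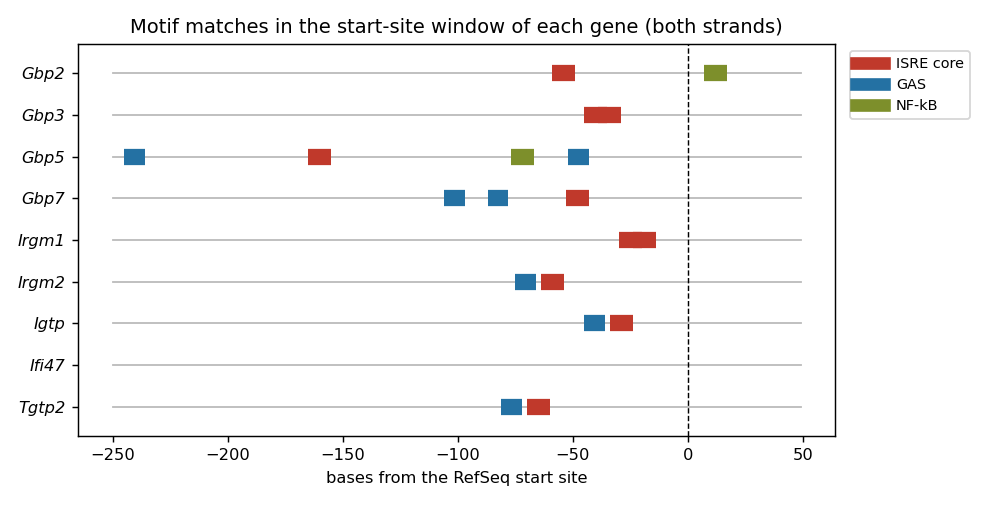
Motif matches in the start-site window of each of the 9 genes. The x axis gives bases from the RefSeq start site (dashed line at 0), grey lines are the windows searched, and red, blue and green bars are ISRE core, GAS and NF-kB matches. Of the 9 windows, 8 hold an ISRE core, and the blue and red bars of Irgm2, Igtp and Tgtp2 stand side by side at the same spacing.

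The authors deposited FPKM values, in which reads are divided by gene length and by a library size. Multiplied by gene length, all values above 0 came out as whole reads to within 0.05 reads, and the 9 libraries held between 14752400 and 17312255 reads on genes. The library size used for FPKM was 1.11 to 1.14 times these reads in the control group, 0.929 to 0.936 times in the LPS group and 0.880 to 0.980 times in the LPS + G-CDs group. Of 9 macrophage markers, 8 reached 1 FPKM, while Mertk was at 0 in all libraries. The summed macrophage markers were 2236 to 3167 FPKM in control, 1647 to 1725 in LPS and 1304 to 1930 in LPS + G-CDs libraries. Lyz2, with a mean of 1762 FPKM in control and 947 with LPS, made up most of the sum in these groups. In the test described below, 3 of the 8 tested markers were called higher with LPS and 2 lower. Of all tested genes 15.8% were called higher and 15.6% lower. No B cell, T or NK cell, fibroblast or epithelial marker reached 1 FPKM. Libraries 1 and 3 of the LPS + G-CDs group stood apart from each other by gene length. The tested genes were split by length into 5 bins of equal size. In the bin with the longest gene models (median 9132.5 bases) the median deviation from the group mean was 0.26 on the log2 scale in replicate 1 and −0.26 in replicate 3. In the bin with the shortest (median 684 bases) it was −0.26 and 0.30. The control group had a smaller trend of the same kind, with 0.11, 0.13 and −0.22 for replicates 1, 2 and 3 in the longest bin. In the 3 LPS libraries the medians of these bins lay between −0.03 and 0.02.

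In untreated cells, the immunity-related GTPases were expressed at a low level and the guanylate-binding proteins were near 0. Irgm1, which controls autophagy and lysosomal traffic besides restraining its relatives, had the highest level, at 3.40, 4.32 and 4.53 FPKM in the 3 control libraries. Igtp had 2.87, 2.50 and 2.94 FPKM, Ifi47 had 2.18, 1.73 and 2.29 FPKM, and Irgm2 had 1.24, 1.67 and 1.31 FPKM. In this order, no neighbouring pair among these 4 genes overlapped. Gbp3 and Gbp7 were below 0.23 FPKM and overlapped each other. Gbp2 rested on a single read over the 3 libraries, and Gbp5 and Tgtp2 had 0 reads, which allows up to 3 reads over the group. The 9 values summed to 10.6 ± 0.58 FPKM (SD, n = 3), and the 4 Gbp genes made up 2.31% ± 1.5 of this sum.

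With LPS, the 8 GTPase genes that passed the filter on low values were called higher, and Tgtp2 did not pass it. The GMS genes rose between 6.65-fold and 7.89-fold in normalised reads, and the Gbp genes, which started near 0, rose 51-fold or more. Normalised reads are reads divided by the library size used for FPKM. That size exceeded the reads on genes in the control libraries and fell below them in the LPS libraries. LPS to control ratios of normalised reads are therefore higher than ratios taken per read on genes. In bulk RNA, more expressing cells and more RNA per cell cannot be told apart. Irgm1 reached 31.8, 32.8 and 31.7 FPKM in the 3 LPS libraries. Igtp, a GMS protein of the endoplasmic reticulum, reached 19.5, 19.8 and 18.5 FPKM. Irgm2, a GMS protein of the Golgi, reached 8.82, 9.85 and 9.28 FPKM. For each of these genes the lowest LPS library was more than 5 times as high as the highest control library. Summed over libraries, the LPS to control ratio of normalised reads was 7.89 for Irgm1, with an exact 95% interval of 7.44 to 8.38 that covers counting error only. It was 6.92 (6.12 to 7.86) for Igtp and 6.65 (5.85 to 7.59) for Irgm2.

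The GKS genes differed widely in level. Ifi47 went to 5.94, 7.76 and 8.40 FPKM with LPS, a ratio of 3.56 (3.10 to 4.10). Tgtp2 stayed under 0.25 FPKM, with 4, 10 and 2 reads in the LPS libraries against 0 reads in all control libraries. Its reads were at least 6.78-fold higher with LPS than a floor of 3 reads over the control group. Tgtp2 did not pass the filter on low values and was not tested with the other genes. Without the filter its difference of 0.17 in log2(FPKM + 1) had an adjusted p of 0.13 in limma.

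Among the guanylate-binding proteins, Gbp3 reached 8.24, 10.3 and 9.35 FPKM with LPS, from 0.229, 0.0360 and 0.0860 FPKM in control cells. Gbp7, which is linked to assembly of the phagocyte NADPH oxidase, reached 5.46, 6.53 and 5.81 FPKM, from 0.152, 0.136 and 0.0600 FPKM. Gbp2, which is prenylated and coats vacuoles and bacteria, reached 2.16, 2.53 and 1.39 FPKM. Gbp5, which promotes NLRP3 inflammasome assembly, reached 1.58, 1.92 and 1.65 FPKM. In each of these genes all LPS libraries lay above all control libraries. The ratio of normalised reads was 77.5 (50.5 to 126) for Gbp3 and 51.0 (36.5 to 73.5) for Gbp7. For Gbp2 it was 272 on 214 reads against 1 read, with an interval of 48.3 to 10793. Gbp5 was at least 203-fold higher, from 480 reads against a floor of 3 reads over the control group.

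**Figure D2:**
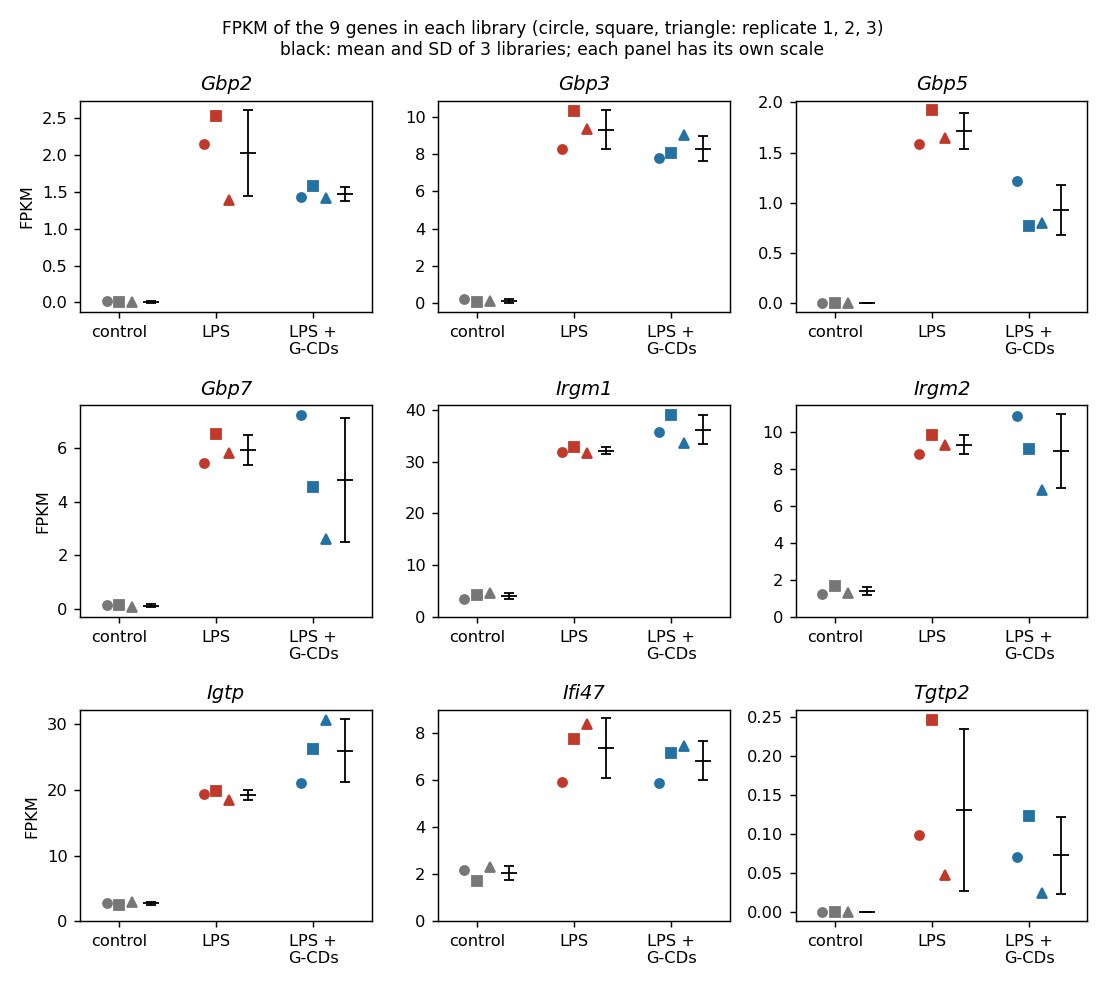
FPKM of the 9 GTPase genes in each library. Points are libraries (circle, square and triangle for replicates 1, 2 and 3), black marks are the mean and SD of 3 libraries, and each panel has its own linear scale. In every panel all LPS and LPS + G-CDs libraries stand above all control libraries, and the LPS + G-CDs libraries of Gbp7 run from 2.62 to 7.24 FPKM.

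The test was made on log2(FPKM + 1) with limma over the 11585 genes with at least 1 FPKM in at least 3 libraries, with a call at a Benjamini-Hochberg adjusted p under 0.05. Of the 9 genes, 8 passed this filter and 8 were called higher with LPS, against 15.8% of all genes tested. The groups did not overlap for any of the 8, against 27.4% of all genes whose LPS libraries all lay above the control libraries. The 4 Gbp genes were under 1 FPKM in every control library and passed the filter only through the groups with LPS, so for them a difference was implied by the filter. Irgm1, Igtp, Irgm2 and Ifi47 were above 1 FPKM in all 9 libraries. On this scale, which understates the change of genes with low values, Irgm1 differed by 2.71 (SE 0.12, adjusted p = 6e-07), Igtp by 2.43 (SE 0.14, adjusted p = 3.2e-06), Irgm2 by 2.10 (SE 0.16, adjusted p = 1.5e-05) and Ifi47 by 1.44 (SE 0.15, adjusted p = 0.00013). The Gbp genes differed by 3.20 (Gbp3), 2.63 (Gbp7), 1.57 (Gbp2) and 1.44 (Gbp5), with adjusted p between 2.8e-07 and 0.0001. The median over all genes tested was 0.02.

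With LPS the 9 genes summed to 87.2 ± 4.2 FPKM (SD, n = 3), and the Gbp portion of the sum was 21.7% ± 1.3. Irgm1 and then Igtp stood clear of the rest. Irgm2, Gbp3, Ifi47 and Gbp7 followed with means of 9.32, 9.30, 7.37 and 5.93 FPKM, and each of them overlapped the next. Gbp2 and Gbp5, with means of 2.03 and 1.72 FPKM, also overlapped each other. The SD of log2(FPKM + 1) across the LPS libraries had a median of 0.10 over the 8 tested genes, against 0.087 over all tested genes, and ran from 0.027 for Irgm1 to 0.29 for Gbp2.

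With G-CDs added to LPS, none of the 8 tested genes was called, and the differences from LPS alone ran from −0.50 for Gbp5 to 0.40 for Igtp on the log2 scale. Over the 9 genes the sum was 93.5 ± 2.8 FPKM (SD, n = 3), and the Gbp portion was 16.6% ± 2.4. Of all tested genes, 0.492% were called at an adjusted p under 0.05. The 4 Gbp genes all had negative differences, while Igtp had a positive one, as did Irgm1 except when the values were rescaled to TPM (−0.0019). At an unadjusted p under 0.05, 15.2% of all genes passed, and of the 8 genes Gbp5 and Igtp did. At p under 0.01 with over 1.5-fold in FPKM + 1, 2.49% of all genes and 0 of these 8 passed. Gbp5, with an unadjusted p of 0.0061, missed this fold on the FPKM + 1 scale (0.707) but not in normalised reads (0.537). The voom test on the recovered reads called 0 of the 8 as well. This comparison uses the same LPS libraries as the comparison with control.

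Gbp5 was the gene with the most negative difference. It had 1.22, 0.771 and 0.794 FPKM in the LPS + G-CDs libraries, all below the 1.58, 1.92 and 1.65 FPKM of the LPS libraries. The difference in log2(FPKM + 1) was −0.50 (95% interval −0.82 to −0.18, adjusted p = 0.21). The ratio of normalised reads, 276 against 480 reads, was 0.537 (0.462 to 0.624, counting error only). Such an order of the libraries without overlap was seen downward in 15% of all genes tested. The other Gbp genes overlapped between the groups. Gbp2 had 1.43, 1.58 and 1.41 FPKM, a difference of −0.27 (−0.64 to 0.09, adjusted p = 0.36). Gbp3 had 7.77, 8.06 and 9.05 FPKM, a difference of −0.15 (−0.43 to 0.14, adjusted p = 0.49). Over the alternatives of processing, the differences ranged from −0.43 to −0.15 for Gbp2 and from −0.30 to −0.077 for Gbp3.

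Igtp was the gene with the most positive difference. It had 21.1, 26.3 and 30.7 FPKM with G-CDs, all above the LPS libraries, which lay between 18.5 and 19.8 FPKM. The difference was 0.40 (0.08 to 0.72, adjusted p = 0.29). Irgm1 had 35.8, 39.1 and 33.5 FPKM, also without overlap, and its difference was 0.16 (−0.11 to 0.44, adjusted p = 0.44). Upward order without overlap was seen in 12.9% of all genes tested. Irgm2, whose exons overlap those of Igtp, had 10.9, 9.09 and 6.89 FPKM and a difference of −0.07 (−0.43 to 0.29, adjusted p = 0.79). Ifi47 had 5.90, 7.16 and 7.46 FPKM and a difference of −0.09 (−0.43 to 0.26, adjusted p = 0.73). Tgtp2 had 3, 6 and 1 reads with G-CDs, and its ratio to LPS of 0.584 had an interval of 0.237 to 1.37, so a difference was not detectable at this depth.

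**Figure D3:**
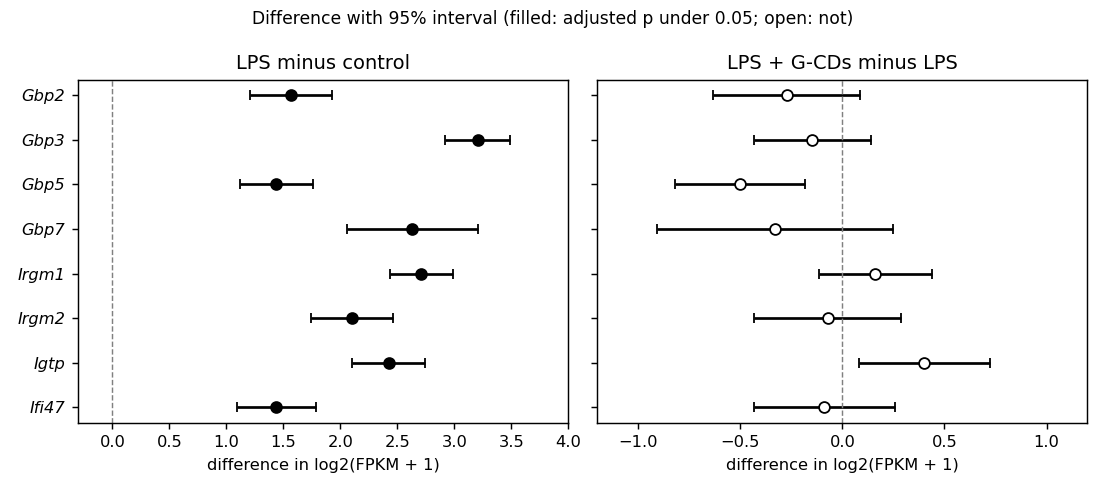
Differences in log2(FPKM + 1) for the 8 tested genes, LPS minus control on the left and LPS + G-CDs minus LPS on the right, on different x scales. Points are estimates, bars are 95% intervals, and filled points have an adjusted p under 0.05 in limma. The left panel runs from 1.44 to 3.20 with all points filled, and the right panel runs from −0.50 to 0.40 with all points open.

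On the log2(FPKM + 1) scale the LPS + G-CDs libraries spread more for Gbp7 than for the other 7 tested genes, at 7.24, 4.57 and 2.62 FPKM. They spanned 1.19 on this scale for Gbp7, against 0.22 in the LPS libraries, and its difference from LPS was −0.33 (−0.91 to 0.25, adjusted p = 0.45). Replicate 1 was the highest and replicate 3 the lowest for Gbp7 and Irgm2, replicate 1 was also the highest for Gbp5, and for Igtp replicate 3 was the highest and replicate 1 the lowest. Igtp has the shortest gene model of the 9, at 2022 bases, while those of Gbp7 and Gbp5 have 5614 and 6637 bases. Across all tested genes the same replicates stood apart by gene length. Irgm2, at 3690 bases, falls in the middle bin, where the median deviations were −0.05 for replicate 1 and 0.04 for replicate 3. Irgm1, at 5810 bases, had its lowest value in replicate 3 and its highest in replicate 2. Of the other short genes, Ifi47 (2473 bases) and Gbp3 (3265 bases) were highest in replicate 3 and lowest in replicate 1, while Gbp2 (2516 bases) was lowest in replicate 3, unlike the bins of short genes.

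With the trend by gene length removed from every library, the differences between LPS + G-CDs and LPS became 0.19 for Igtp (adjusted p = 0.33), −0.36 for Gbp5 (adjusted p = 0.29) and −0.24 for Gbp7 (adjusted p = 0.54). The other 5 differences moved away from 0, to 0.26 for Irgm1 (adjusted p = 0.33), −0.43 for Gbp2, −0.25 for Ifi47, −0.22 for Gbp3 and −0.11 for Irgm2, and no gene of the 8 was called. Without replicate 1 of the LPS + G-CDs group the differences were −0.61 for Gbp5 (adjusted p = 0.056), 0.54 for Igtp (adjusted p = 0.054) and −0.62 for Gbp7 (adjusted p = 0.071). Without replicate 3 they were −0.45 for Gbp5, 0.28 for Igtp and −0.03 for Gbp7.

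**Figure D4:**
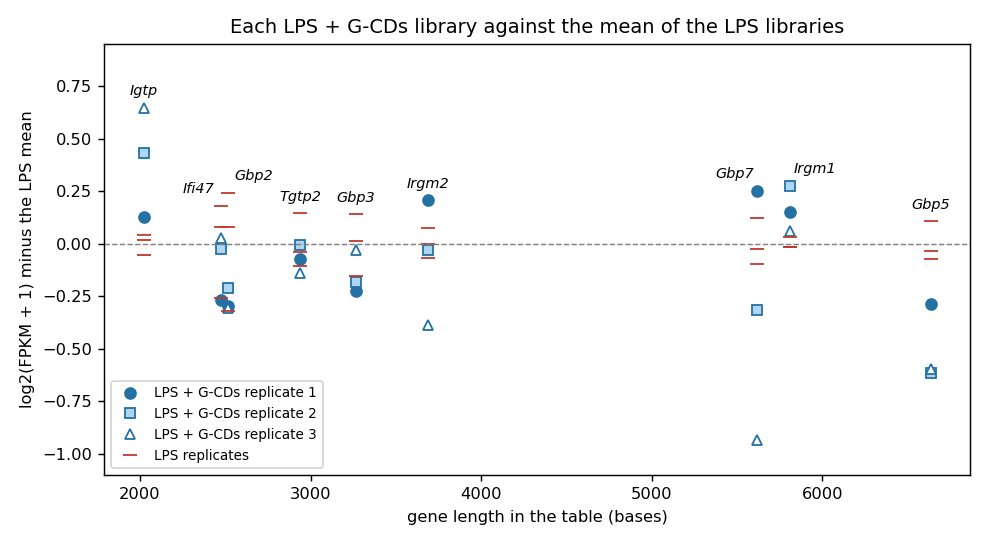
Each LPS + G-CDs library against the mean of the LPS libraries, by gene length. The y axis is log2(FPKM + 1) minus the mean of the 3 LPS libraries, blue symbols are the LPS + G-CDs replicates and red bars the LPS replicates. Replicate 3 (open triangle) lies at 0.65 for Igtp, the shortest gene, and at −0.93 for Gbp7, where replicate 1 (filled circle) lies at 0.25.

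Against untreated cells, LPS + G-CDs cells had the same 8 genes called higher, where 12.8% of all tested genes were called higher. This comparison shares the control libraries with the LPS comparison. The differences in log2(FPKM + 1) were 2.87 for Irgm1, 2.83 for Igtp, 2.03 for Irgm2 and 1.35 for Ifi47. They were 3.06 for Gbp3, 2.30 for Gbp7, 1.30 for Gbp2 and 0.94 for Gbp5, and adjusted p lay between 4.2e-07 and 0.0012. None of the 8 genes overlapped between these groups, against 17.7% of all genes with all LPS + G-CDs libraries above all control libraries. As in the comparison of LPS with control, the 4 Gbp genes passed the filter only through the groups with LPS. For them a difference from control was implied by the filter.

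Further members of the GTPase families also rose with LPS. Of 7 further Gbp genes in the table, 2 passed the filter and both rose, where 15.8% of all tested genes were called higher. Gbp2b went from at most 0.0199 FPKM to 1.97, 2.23 and 2.53 FPKM (difference 1.69, adjusted p = 2.1e-05), and Gbp9 differed by 1.09 (adjusted p = 0.0018). Of 12 further IRG genes 4 passed, and 2 of them rose, namely Gm5431 by 0.81 (adjusted p = 0.0035) and 9930111J21Rik2 by 1.06 (adjusted p = 0.027). The call of 9930111J21Rik2 was lost in 7 of the 19 alternatives that tested it, with adjusted p up to 0.085, which were no filter, TPM and the fits without control replicate 1 or 3 or without any of the LPS replicates. Iigp1, the best studied vacuole-attacking IRG, was at 0.626, 0.464 and 0.639 FPKM with LPS and was not tested. It is named here after its values were seen. Among the Mx and very large GTPases, all 4 tested genes rose. They included Mx2, of the Mx family of antiviral GTPases and annotated as a polymorphic pseudogene, with 24.0, 23.8 and 22.3 FPKM against at most 0.715 FPKM in control cells (difference 3.92), Mx1 (1.85), and Gm8995, an annotated pseudogene (3.52). Gbp2b, Gbp9, Gm5431, 9930111J21Rik1, Mx1, Mx2 and Gm4070 were under 1 FPKM in all control libraries and passed the filter only through the groups with LPS.

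With G-CDs, 0 of these 10 further family genes were called in limma, against 0.492% of all tested genes. Of the 10, 9 had negative differences, as did 48.0% of all tested genes, and the median was −0.50 against 0.02 over all tested genes. The smallest adjusted p was that of Gbp2b, at −0.46 (adjusted p = 0.22). Gm8995 had 41.9, 20.8 and 12.7 FPKM with G-CDs against 49.4 to 54.3 FPKM with LPS, a difference of −1.18 (adjusted p = 0.25). Its gene model is 7433 bases long, and its libraries stood in the same order as those of Gbp7. Without replicate 1 of the LPS + G-CDs group Gm8995 differed by −1.61 (adjusted p = 0.032) and 9930111J21Rik1 by −1.02 (adjusted p = 0.048). Without replicate 3 of that group they differed by −0.79 (adjusted p = 0.59) and −0.52 (adjusted p = 0.75).

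The pathway upstream of these genes was followed through its ligands, receptors and factors. Among the ligands, Ifnb1 was at 0 in all control libraries and at 10.1, 10.1 and 11.8 FPKM with LPS (difference 3.55, adjusted p = 1.7e-06), so it passed the filter only through the groups with LPS. Ifng and 3 interferon-α genes (Ifna2, Ifna4 and Ifna5) were listed at 0 in all 9 libraries. With G-CDs, Ifnb1 had 6.46, 7.87 and 11.9 FPKM, and the difference from LPS was −0.30 (adjusted p = 0.38). Over the alternatives of processing it ranged from −0.52 to −0.13 and was not called.

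Of 7 receptor and JAK kinase genes, 1 rose and 2 fell with LPS, where 15.8% of all tested genes were called higher and 15.6% lower. Jak2, the kinase bound to the interferon-γ receptor, went from 5.59, 5.48 and 3.26 FPKM to 17.5, 18.2 and 16.2 FPKM (difference 1.69, adjusted p = 0.0004). Ifngr1, the ligand-binding chain of that receptor, fell by 0.44 (adjusted p = 0.031), and Ifnar2, a chain of the interferon-α/β receptor, fell by 0.37 (adjusted p = 0.026). Each of these falls lost its call in the same 6 of 20 alternatives, the fits without control replicate 2 or 3, any LPS replicate or LPS + G-CDs replicate 2, with adjusted p between 0.054 and 0.11. Against the same 15.8% called higher, the factor genes that rose numbered 7 of 10, led by Irf7 (4.25), which amplifies interferon production, Batf2 (2.17) and Stat2 (2.04). Irf1, Irf2 and Irf3 were not called. Of 6 genes that restrain the pathway 3 rose, namely Socs3 (5.34), Usp18 (4.08) and Socs1 (0.81), with adjusted p between 2.8e-08 and 0.0035. Batf2 and Socs1 were under 1 FPKM in all control libraries and passed the filter only through the groups with LPS. With G-CDs, 0 of these 24 ligand, receptor, factor and brake genes were called, against 0.492% of all tested genes. Irf8 was the one with the smallest adjusted p, at 38.8, 40.8 and 46.0 FPKM against 54.1 to 59.4 FPKM with LPS (difference −0.44, adjusted p = 0.18). The other genes with the smallest p in their lists were Irf1 (0.45), Ifngr1 (0.33), Jak2 (−0.53), Socs1 (0.33) and Socs3 (−0.22), with adjusted p between 0.26 and 0.41.

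The genes through which the GTPases act were also counted, against the 15.8% of all tested genes called higher with LPS. GBPs and IRGs are loaded onto vacuoles with the help of the Atg8 conjugation machinery, and of its 11 tested genes only Gabarapl1, a member of the Atg8 family, rose with LPS (0.66, adjusted p = 0.02). This call was lost without control replicate 1 or 2 or any LPS replicate (adjusted p up to 0.069). Of 6 prenylation genes only Zmpste24 was called (0.45, adjusted p = 0.048). It was lost in 12 of 20 alternatives, among them the fits without control replicate 1 or 3, any LPS replicate or LPS + G-CDs replicate 2 (adjusted p up to 0.15) and TPM (adjusted p = 0.56). Of 5 tested genes that act in ubiquitin coating of vacuoles 4 rose, with the largest differences in the ubiquitin ligase Rnf213 (3.46), Sqstm1 (1.91) and the antibody receptor and ligase Trim21 (1.37). Of 7 tested genes around caspase-11 and the inflammasome 5 rose, among them Il1b (8.72), Nlrp3 (3.57) and Casp4 (2.64), the mouse caspase-11 gene. Il1b was under 1 FPKM in all control libraries and passed the filter only through the groups with LPS. Gsdmd and Casp1 were not called.

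Sqstm1, the autophagy receptor p62, was the only gene called with G-CDs among the 91 tested genes of these family and pathway lists, the 8 GTPases included, where 0.492% of all tested genes were called. It had 212, 199 and 216 FPKM with LPS and 464, 533 and 575 FPKM with G-CDs, a difference of 1.32 (adjusted p = 0.0068). The call was lost in 3 of 20 alternatives, those without LPS replicate 1, LPS replicate 2 or LPS + G-CDs replicate 2, with adjusted p between 0.066 and 0.074. Atg5 (0.55, adjusted p = 0.17), Gabarapl1 (0.67, adjusted p = 0.18) and Casp1 (0.77, adjusted p = 0.18) were not called. Nor were Nlrp3, with 220, 178 and 129 FPKM against 259 to 261 FPKM with LPS (−0.59, adjusted p = 0.32), and the prenylation genes Fnta (0.29, adjusted p = 0.35) and Pggt1b (−0.48, adjusted p = 0.37).

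Other interferon targets were counted by class. Of 12 type I interferon targets all 12 rose with LPS, against 15.8% of all tested genes called higher, with the largest values in Isg15 (6.13), Oasl1 (5.01) and Rsad2 (4.65). Among them Ifit1, Ifit3, Rsad2, Oasl2 and Herc6 were under 1 FPKM in all control libraries, so that their differences were implied by the filter, and the other 7 of the 12 rose as well. Of 14 genes known mainly as interferon-γ targets 8 passed the filter and 4 of them rose, namely Cxcl10 (5.79), Cd274 (1.91), Tap1 (1.84) and Nlrc5, while the immunoproteasome genes Psmb8, Psmb9 and Psmb10 and the transporter gene Tap2 were not called. Cxcl10 and Cd274 were under 1 FPKM in all control libraries and passed only through the groups with LPS, and of the other 6 tested genes of this class 2 rose. With G-CDs, 0 of the 20 tested genes of both classes were called in limma, against 0.492% of all tested genes. Rsad2 (0.53) and Ifih1 (−0.51), each with an adjusted p of 0.21, had the smallest adjusted p among the type I targets, as did Cxcl10 (0.52, adjusted p = 0.25) and Nlrc5 (−0.73, adjusted p = 0.30) among the interferon-γ targets. Ifih1 was called without replicate 1 of the LPS + G-CDs group, at −0.65 (adjusted p = 0.048). By sequence, an ISRE core lay in the window of 7 of the 12 type I targets and of 5 of the 8 further GTPase family genes that had a window. Over tested genes with a window, it lay in 7.81% of the 1358 called higher with LPS, 2.88% of the 1388 called lower and 3.13% of the 5264 not called. Windows were matched for 1358 of the 1827 genes called higher, 1388 of 1803 called lower and 5264 of 7955 not called.

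**Figure D5:**
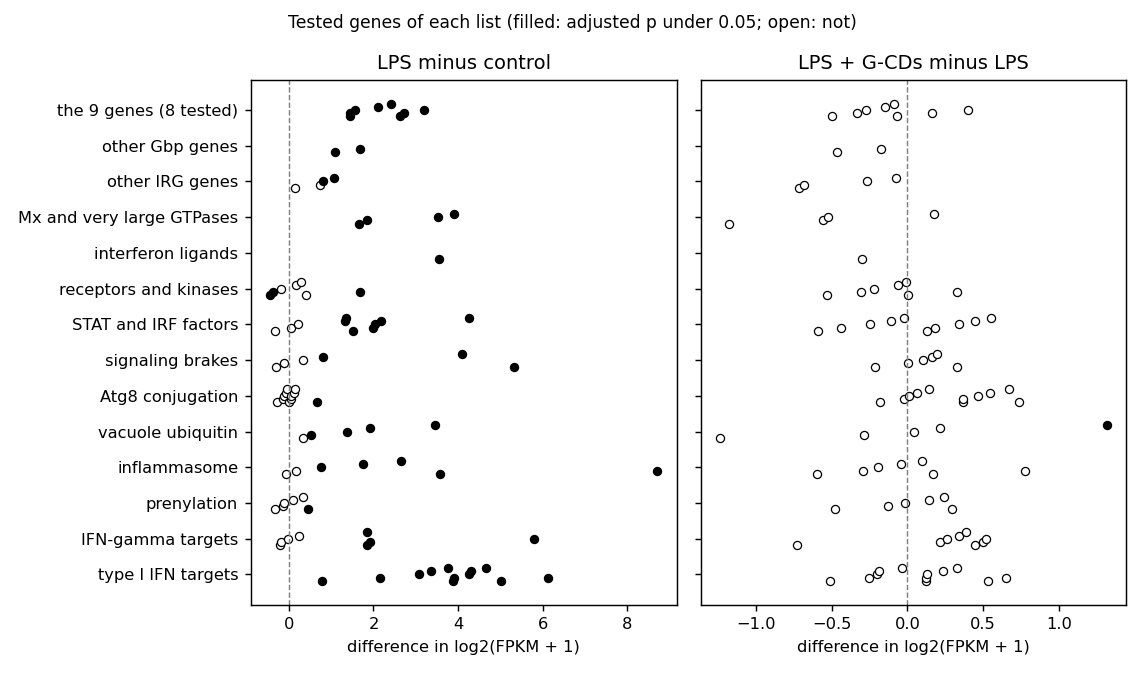
Differences in log2(FPKM + 1) of the tested genes of each list, LPS minus control on the left and LPS + G-CDs minus LPS on the right. Each circle is a gene, and filled circles have an adjusted p under 0.05 in limma. The type I interferon targets lie between 0.79 and 6.13 on the left, and the only filled circle on the right is Sqstm1 at 1.32.

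The genes with profiles most like the mean of the 8 GTPases over the 9 libraries were Oasl2, Lif, Ifit1, Lilr4b and Ifi44, with Pearson's r of 0.998 to 0.999. The 9 points share 3 group levels, and 7.73% of all tested genes had r of at least 0.9, so these values describe the step from control to LPS. The 28 pairs among the 8 GTPases had a median r of 0.96. Over the 6 libraries given LPS the same pairs had a median r of −0.06. There the profile nearest to the mean of the centred GTPases was that of Uspl1 (r = 0.988), followed by Nlrc3, Fam172a, Mir7026 and Hnrnpa3. Over these 6 libraries 1.65% of tested genes had r of at least 0.9. The GTPases themselves ran from −0.85 (Igtp) to 0.57 (Irgm2) against the mean of the others, so these nearest genes describe no shared GTPase profile.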

How the data were processed

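RNA-seq values of 9 RAW264.7 libraries were analysed. The authors deposited FPKM values per gene and library, with gene coordinates and lengths. The submitters' processing notes name GRCm38 and mm10, and the aligner, the counter and the test are not given in the sources used here. Columns were assigned to samples through their names. The G-CDs group was taken from the sample titles.

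The 9 genes, the pathway lists and the rule for naming genes were chosen with earlier results of these data known, so nothing here counts as independent evidence. Genes of a list were named if they had the 3 largest differences among those called, or the 2 smallest p where none was called, and the 5 most alike profiles were named.

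FPKM multiplied by gene length was turned back into reads (tolerance 0.05 reads), which served for depth, for ratios with exact conditional 95% intervals, for a floor of 3 reads per group and for voom with TMM factors as an alternative. The filter kept 11585 of 54532 genes, those reaching 1 FPKM in 3 or more of the 9 libraries. They were fitted as log2(FPKM + 1) with limma 3.58.1 in R 4.3.3 (lmFit, eBayes with trend, 1 model for the 3 groups, two-sided tests, Benjamini-Hochberg adjustment over all genes tested). Because the table holds no counts, a count model was not the main test. Intervals of read ratios and floors cover counting error only, while those of limma differences rest on the spread between libraries. The fit was tested on simulated data.

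Control and LPS libraries with the same replicate number deviated together from their group means, with correlations of 0.103, 0.137 and 0.113. Each exceeds 0.1, the limit set for treating the numbers as pairs. The reported fit has no term for the replicate number, and a replicate block was fitted as an alternative. Such a pairing would rest on the data alone, since no label says what a number stands for. Libraries with unlike numbers were not correlated. For LPS and LPS + G-CDs the values were 0.095, 0.080 and 0.143, and for control and LPS + G-CDs 0.280, 0.057 and 0.653. Start-site windows were RefSeq sequences, and words shared between transcripts were counted on GENCODE mouse release 21 with Python 3.11.15. The columns of other samples numbered 0. Of 149 listed symbols 148 were found.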

Additional observations from a re-analysis of the deposited data

How the results depend on the processing

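Each comparison was recomputed under 20 alternatives, which were another pseudocount (0.1), no filter, a stricter filter (5 FPKM), rescaling to TPM, by median of ratios or by quantiles, the 6 libraries alone, eBayes without trend, voom, a replicate block, removal of the gene-length trend and each of the 9 libraries left out. The 8 GTPase genes that passed the filter were called higher with LPS and with LPS + G-CDs against control under every alternative that tested them, and none was called for LPS + G-CDs against LPS. Tgtp2, tested only without the filter, was not called (adjusted p = 0.13, 0.45 and 0.62 for LPS against control, LPS + G-CDs against control and LPS + G-CDs against LPS). The stricter filter tested 7747 genes and left out Gbp2 and Gbp5. The direction for LPS + G-CDs against LPS turned for Irgm1 with TPM (−0.0019), for Irgm2 without LPS + G-CDs replicate 3 (0.087), and for Ifi47 without LPS replicate 3 (0.0019) and without LPS + G-CDs replicate 1 (0.0010). Over the fits without 1 library Irgm2 ranged from −0.21 to 0.087 and Ifi47 from −0.22 to 0.0019. None of these was called, and the cause was not tested. TPM moved the median log2 difference of all genes from 0.016 to −0.21 for LPS against control, from 0.017 to −0.12 for LPS + G-CDs against LPS and from 0.025 to −0.33 for LPS + G-CDs against control, and the calls for LPS against control became 1015 higher and 3106 lower (1827 and 1803 in the reported fit). For LPS + G-CDs against control they became 755 and 3255 (1488 and 1439). Over all genes, the 57 calls for LPS + G-CDs against LPS became 25 with a pseudocount of 0.1, 37 with TPM, 25 with the 6 libraries alone and 95 with the length trend removed, and ranged from 11 to 256 when a library was left out (11 without LPS + G-CDs replicate 2, 256 without its replicate 1). The 2927 calls for LPS + G-CDs against control became 1789 with the 6 libraries alone and ranged from 1914 to 3245 when a library was left out, and the 3630 for LPS against control ranged from 2478 to 4289. The replicate block gave 4104 calls for LPS against control, 53 for LPS + G-CDs against LPS and 3347 for LPS + G-CDs against control, and changed 0 of the 79 calls on named genes. Depth limits Tgtp2, with at most 10 reads in a library, and the control levels of the Gbp genes, which rest on 0 to 16 reads a library.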
